A study of Saccharomyces cerevisiae with 5 samples.

Results

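GCN4, the gene of the transcription factor that runs the general amino acid control of yeast, and 34 genes of enzymes that build amino acids were compared between cells without SUL1, a high-affinity sulfate transporter, and wild-type cells. The genes were chosen by symbol from known pathways, and all 35 were found among the 5886 genes listed in both tables. They fall into 6 pathways beside GCN4: 4 genes of arginine, 6 of histidine, 7 of lysine, 9 of isoleucine, valine and leucine, 5 of tryptophan and its shikimate precursor, and 3 of the branch that leads from aspartate to homoserine. The cells were Saccharomyces cerevisiae with S288C as the labelled strain. The knockout titles name BY4741, a haploid of that background with deletions in HIS3, LEU2, MET17 and URA3, and the wild type is described as WT4741. By the study's design both were growing exponentially. Both strains grew at 30 °C in YPD, a complete medium with 2% glucose, 2% peptone and 1% yeast extract. There were 3 SUL1 knockout libraries, whose titles give an optical density of 0.6, and 2 wild-type libraries, whose titles give no density. The series asks how loss of SUL1 lengthens replicative life, the number of daughters that a mother cell buds off.

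In yeast, uncharged transfer RNA activates the kinase Gcn2, which phosphorylates translation factor eIF2. General translation then slows, while short reading frames in the leader of the GCN4 messenger let more Gcn4 protein be made. Gcn4 binds a short motif upstream of many biosynthesis genes and raises their transcription, and it is quickly degraded in well-fed cells. Because much of this control acts on translation and turnover, the level of the GCN4 messenger is not a measure of the protein.

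Levels are FPKM as deposited, fragments per kilobase of transcript scaled to each library, so they can be compared between genes. Estimated depth was 24350000 to 24800000 fragments in SUL1 knockout cells and 22550000 to 24800000 in wild-type cells. SUL1 was listed at 0 FPKM in all 3 knockout libraries, against 8.28 and 9.78 in wild-type cells. MET17, which BY4741 lacks, was listed at 0 in all 5 libraries, and HIS3, a deletion allele in this strain, read 130, 133 and 141 FPKM in knockout cells and 138 and 146 in wild-type cells. STE2, the receptor that marks mating type a, lay between 115 and 143 FPKM in knockout cells and between 131 and 145 in wild-type cells, and its groups overlapped, as did those of STE6 and BAR1. The alpha-factor gene MF(ALPHA)1 did not exceed 0.23 FPKM in knockout cells and 0.80 in wild-type cells, and the other alpha markers MF(ALPHA)2, STE3 and SAG1 lay between 6.12 and 11.8 in knockout cells and between 4.97 and 11.6 in wild-type cells. ARG3 had the fewest fragments of the 35 genes, an estimated 285 in its shallowest library, with a counting error of 5.92%. All 35 genes have a single coding exon, and none overlaps another annotated gene.

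The motif of Gcn4 was common upstream of these genes. The 6 letters TGACTC, or GAGTCA on the other strand, stood within 250 bases before the coding start of 21 of the 35 genes, or 60.0%, and of 6.34% of 5711 genes with such a window. The 7 letters TGACTCA, or TGAGTCA on the other strand, stood in 17 of the 35 windows and in 2.17% of all; every such match contains the shorter motif. Within 500 bases, a window chosen after seeing the data, 26 genes held the shorter motif, or 74.3%, against 12.8% of all. The sites below are those of the 3 genes with the motif that differed most between the strains and of the 3 that differed least. Those of HIS4, which is 1 of 3 genes with 2 or more sites within 250 bases, are also shown. Capitals mark the motif, and each sequence reads 5′ to 3′ on the strand of its gene (RefSeq assembly of build R64).
LYS2: gtttttcgcgtgTGACTCaatgtcgaaata
ARG4: ttagtagatgaaTGACTCactttttggata
ARO1: ttgtcatgcataTGACTCatcccgaacatg
HIS6: gtctagtgtgcaGAGTCAtacggaataatt
ILV5: gatgacctaactTGACTCaatggcttttac
LYS12: atattcttaagaTGACTCtaattagaggaa
HIS4: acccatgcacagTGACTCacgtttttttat
HIS4: ctaatagTGACTCcggtaaattagttaatt
The LYS2 site lies at chrII:474103-474132 on the reverse strand, with its motif starting 194 bases before the coding start, and the ARG4 site at chrVIII:141564-141593 on the reverse strand, 179 bases before. The ARO1 site lies at chrIV:704249-704278 on the forward strand, 223 bases before the start. Those of HIS6 (chrIX:314897-314926), ILV5 (chrXII:839376-839405) and LYS12 (chrIX:187773-187802) lie on the reverse strand, 94, 140 and 158 bases before. The HIS4 sites, also on the reverse strand, lie at chrIII:68515-68544 and chrIII:68554-68583, 199 and 243 bases before the start. None of these sites lies inside another annotated gene. GCN4 itself and 13 enzyme genes, among them ARG1, LYS4, LYS20, LYS21 and LEU1, had no TGACTC in the shorter window.

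All 35 genes had a lower mean level in SUL1 knockout cells than in wild-type cells, with ratios of the means from 0.600 for LYS2 to 0.985 for HOM6 and a median log2 fold change of -0.29. None of the 35 genes passed the test, adjusted over all 5712 genes tested (limma, adjusted p between 0.111 and 0.958). Across all genes 0.07% were called lower and 0.193% higher. At an unadjusted p under 0.05, 20 of the 35 were lower and 0 were higher, against 11.6% of all genes lower and 6.92% higher. In 26 of the 35 every knockout library lay below both wild-type libraries, against 28.0% of all genes, and in 0 every one lay above, against 13.1%. A log2 fold change below 0 was found for 62.6% of all genes, whose median was -0.07. Summed over the 35 genes, the level was 7826, 6843 and 7492 FPKM in knockout cells and 8317 and 9369.5 FPKM in wild-type cells, and the groups did not overlap. These sums were 0.417%, 0.351% and 0.408% of all FPKM in knockout cells and 0.460% and 0.541% in wild-type cells. In cultures measured in bulk, fewer cells with a transcript and less of it per cell cannot be told apart.

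**Figure D1:**
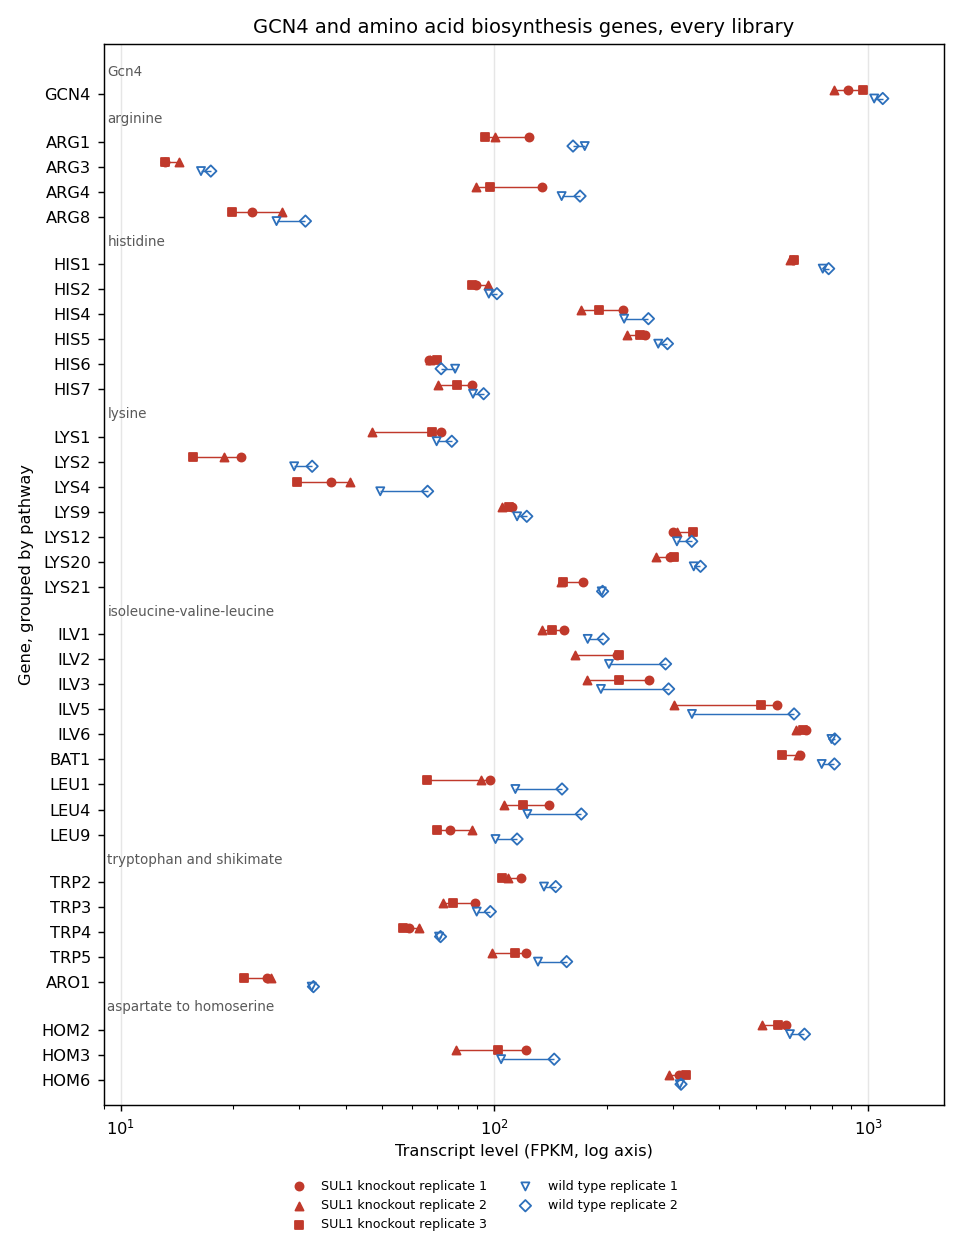
Transcript levels of GCN4 and 34 amino acid biosynthesis genes in every library (FPKM, log axis), with the 3 SUL1 knockout libraries as filled red marks above the 2 wild-type libraries as open blue marks. Each line spans the lowest and highest library of a group, and for 26 of 35 genes the lines of the groups do not overlap.

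The values move with 3 features of the libraries whose part in the result was not tested. The first is coding length. Across the 35 genes log2 fold change and log10 coding length had a Pearson r of -0.55, and across the 5712 genes, which share the same libraries, of -0.44. The 14 genes of 1500 bp or more had a median of -0.36 and the 21 shorter ones of -0.26. With the length trend of each library removed, the median of the 35 was -0.20, 32 were below 0, against 50.2% of all genes, and 14 were lower at an unadjusted p under 0.05 (limma), against 4.83% of all genes. The second is the scale of each library. With libraries set to an equal median log2 ratio, the median of the 35 was -0.23, 32 were below 0, against 51.3% of all genes, and 18 did not overlap, against 19.6% of all genes. The third is knockout replicate 2. Without it, 8 of the 35 genes were called lower and 0 higher (limma, adjusted p under 0.05), against 10.5% of all genes lower and 5.22% higher. With the length trend also removed, 0 of the 35 were called, against 1.63% of all genes lower, and 13 were lower at an unadjusted p under 0.05 (limma), against 12.3% of all genes. With libraries also set to equal FPKM sums, 15 were called lower, against 19.5% of all genes. Without wild-type replicate 2, 4 were lower at an unadjusted p under 0.05 (limma), against 2.45% of all genes. The wild type is then 1 library, assumed to vary like the knockout libraries, which alone give the spread. With the replicate number as a block 9 were lower at an unadjusted p under 0.05 (limma), against 2.64% of all genes. Knockout replicate 3, the only library with that number, then adds nothing to the strain difference. The 8 genes called without knockout replicate 2 alone were LEU9, LYS2, ARG1, ARO1, LYS4, ILV1, TRP2 and HIS1.

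**Figure D2:**
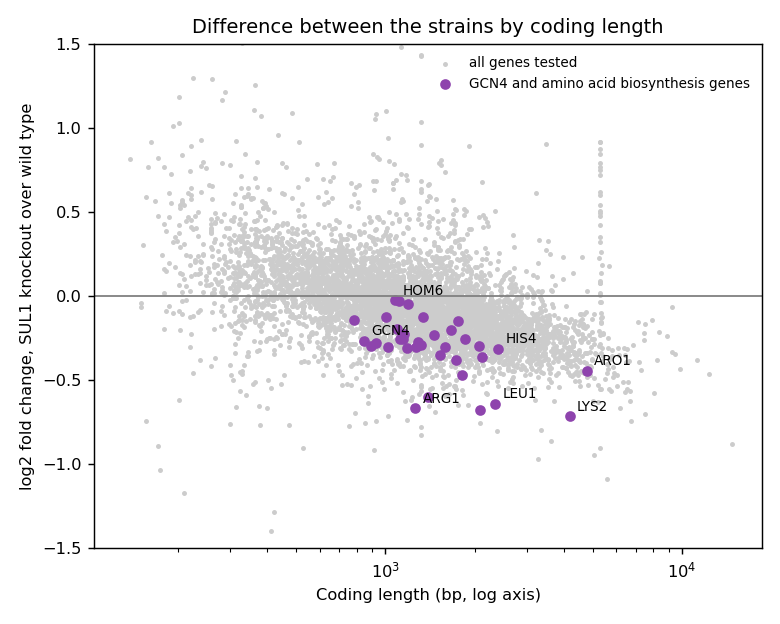
Log2 fold change between the SUL1 knockout and the wild type (vertical axis) against coding length in bp (log axis), with the 35 genes in purple over all genes tested in grey. The 12 genes beyond 1.5 in either direction are not drawn, and longer genes lie lower in both sets.

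GCN4 (chrV:138918-139763, reverse strand) had the highest mean level of the set in both strains. It read 886, 812 and 969 FPKM in SUL1 knockout cells, against 1038 and 1094 FPKM in wild-type cells. On the deposited scale every knockout library lay below both wild-type libraries, and the ratio of knockout to wild-type mean was 0.834. The log2 fold change was -0.27 ± 0.10 (SE), with a 95% interval from -0.50 to -0.03, and the gene was not called (limma, adjusted p = 0.236). The log2 fold change was -0.27 with the length trend removed and -0.20 with libraries set to an equal median log2 ratio. Its value ranged from -0.33 to -0.20 as single libraries were left out.

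**Figure D3:**
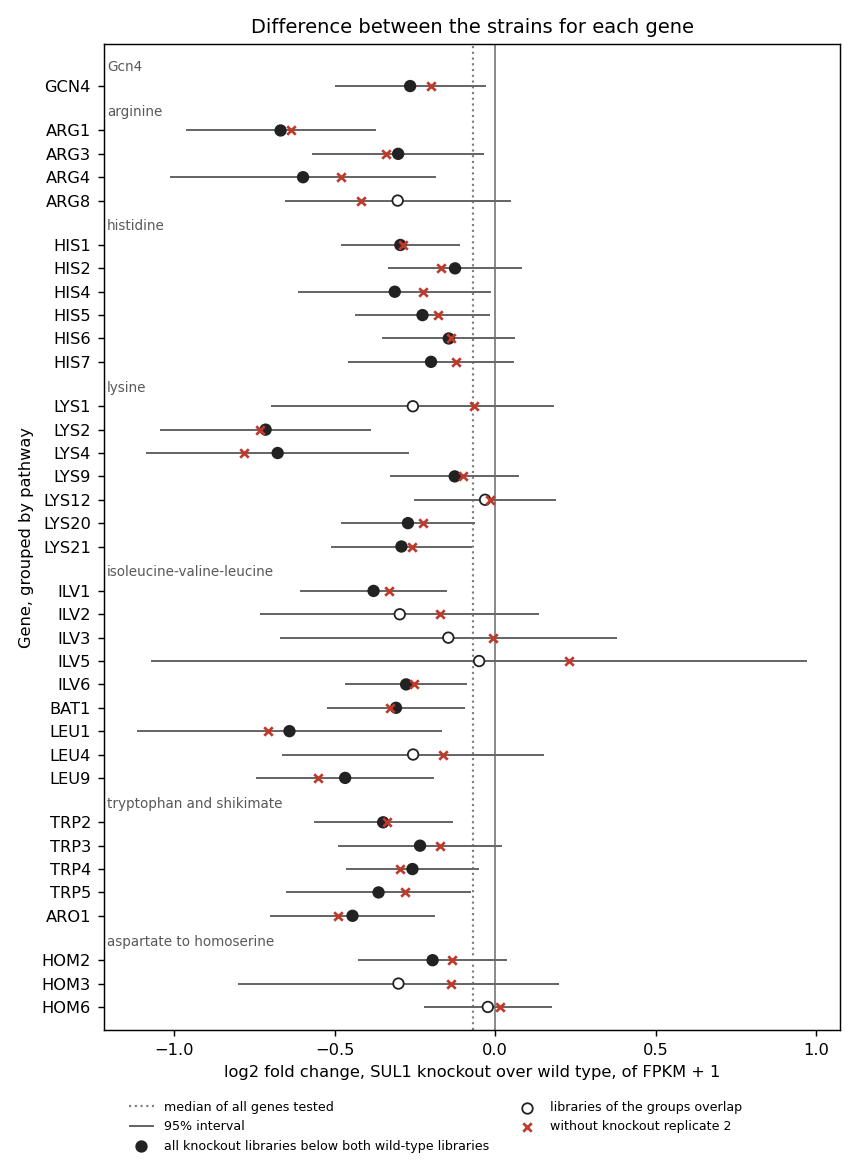
Log2 fold change of each gene, SUL1 knockout over wild type, with its 95% interval from limma. Filled circles mark the 26 genes whose groups do not overlap, crosses give the value without knockout replicate 2, and the dotted line is the median of all genes, at -0.07.

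The arginine genes had the lowest pathway median log2 fold change, -0.45, and 3 of 4 did not overlap between the strains, against 28.0% of all genes that lay wholly lower in the knockout. ARG1, the argininosuccinate synthetase, read 123, 101 and 94.5 FPKM in SUL1 knockout cells and 174 and 162 in wild-type cells. Its log2 fold change of -0.67 ± 0.13 (SE) came with the lowest adjusted p of the 35 genes (limma, 0.111). ARG4, the argininosuccinate lyase of the next step, read 134, 89.4 and 97.4 FPKM in knockout cells and 151 and 169 in wild-type cells. The knockout libraries of ARG4 also all lay below the wild type, with a log2 fold change of -0.60 ± 0.17 (SE; adjusted p = 0.189, limma). ARG3, the ornithine carbamoyltransferase, was the least abundant gene of the set, at 13.2, 14.3 and 13.1 FPKM in knockout cells and 16.4 and 17.4 in wild-type cells. Its log2 fold change was -0.30 ± 0.11. ARG8, the mitochondrial acetylornithine aminotransferase, had 22.4, 27.0 and 19.9 FPKM in knockout cells and 26.1 and 31.2 in wild-type cells, and here the groups overlapped.

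The histidine genes differed by small amounts in all libraries. None of the 6 overlapped between the strains, against 28.0% of all genes that lay wholly lower in the knockout. With libraries set to an equal median 2 of the 6 did not overlap, against 19.6% of all genes. Their median log2 fold change was -0.21. HIS4, a protein that carries several steps of the pathway, read 220, 171 and 190 FPKM in SUL1 knockout cells and 222 and 258 in wild-type cells, a log2 fold change of -0.31 ± 0.13 (SE; adjusted p = 0.257, limma). HIS1, the ATP phosphoribosyltransferase of the first step, read 628, 618 and 635 FPKM in knockout cells and 756 and 784 in wild-type cells. Its libraries were close within each strain, and its log2 fold change was -0.30 ± 0.08 (SE; adjusted p = 0.179, limma). HIS2, the histidinol phosphatase, differed least, at 89.2, 96.3 and 86.9 FPKM in knockout cells and 96.6 and 102 in wild-type cells. The aminotransferase HIS5 had 241 ± 14.2 FPKM in knockout cells (SD, n = 3) and 282 ± 11.3 in wild-type cells (SD, n = 2). HIS6 and HIS7, an isomerase and the synthase that follows it, had log2 fold changes of -0.14 and -0.20, and that of HIS7 was -0.08 with the length trend removed.

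The lysine genes spanned the widest range of values below 0. LYS2 (chrII:469748-473926, reverse strand), the alpha-aminoadipate reductase, read 20.9, 18.9 and 15.7 FPKM in SUL1 knockout cells and 29.1 and 32.5 in wild-type cells. Its libraries did not overlap, and its log2 fold change of -0.72 ± 0.14 (SE) was the lowest of the 35 (limma, adjusted p = 0.124). LYS2 is also among the longest of these genes, and with the length trend removed the value was -0.43. LYS4, the homoaconitase, read 36.5, 41.1 and 29.7 FPKM in knockout cells and 49.5 and 66.2 in wild-type cells, without overlap, and had a log2 fold change of -0.68 ± 0.17 (SE; adjusted p = 0.173, limma). At the other end LYS12, the homoisocitrate dehydrogenase that acts just after LYS4, read 300, 308 and 339 FPKM in knockout cells and 308 and 337 in wild-type cells. Its groups overlapped, with a 95% interval of the log2 fold change from -0.25 to 0.19, and its sign turned under 5 alternatives. Thus consecutive steps of one pathway had unlike values, though the difference between the genes was not tested. The homocitrate synthases LYS20 and LYS21 catalyse the first step. LYS20 read 295, 270 and 302 FPKM in knockout cells and 341 and 356 in wild-type cells, and LYS21 172, 151 and 153 in knockout cells and 194 and 195 in wild-type cells. Their log2 fold changes were close, at -0.27 and -0.29. Their coding sequences are 91.9% identical, and 37.8% of the 50-base windows of LYS20 occur in LYS21, so the authors' read assignment could move fragments between them. Of the enzymes of the last steps, LYS9 had 108 ± 3.68 FPKM in knockout cells (SD, n = 3) and 118 ± 4.99 in wild-type cells (SD, n = 2). LYS1 read 71.7, 46.9 and 68.2 FPKM in knockout cells and 70.0 and 76.9 in wild-type cells, with knockout replicate 2 alone well below the rest.

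The branched-chain pathway held genes that lay apart between the strains and genes that varied mostly within them. LEU1, the isopropylmalate isomerase, read 97.0, 92.3 and 65.9 FPKM in SUL1 knockout cells and 114 and 152 in wild-type cells, a log2 fold change of -0.64 ± 0.20 (SE; adjusted p = 0.201, limma). LEU9 and LEU4 are isozymes of isopropylmalate synthase, which opens the leucine branch. LEU9 read 76.0, 87.3 and 70.2 FPKM in knockout cells and 101 and 115 in wild-type cells, without overlap, with a log2 fold change of -0.47 ± 0.12 (SE; adjusted p = 0.169, limma). LEU4 read 140, 106 and 119 FPKM in knockout cells and 122 and 171 in wild-type cells, with overlap. Their coding sequences are 81.2% identical and share no 50-base window. ILV6, the regulatory subunit of acetolactate synthase, read 682, 643 and 669 FPKM in knockout cells and 798 and 814 in wild-type cells, with no overlap and a log2 fold change of -0.28 ± 0.08. ILV2, the catalytic subunit, read 213, 164 and 215 FPKM in knockout cells and 203 and 287 in wild-type cells, and its groups overlapped. ILV1, the threonine deaminase that opens isoleucine synthesis, had 143 ± 9.79 FPKM in knockout cells (SD, n = 3) and 187 ± 12.7 in wild-type cells (SD, n = 2).

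ILV5, the reductoisomerase that follows acetolactate synthase, had the largest spread within each strain. It read 569, 303 and 517 FPKM in SUL1 knockout cells and 338 and 633 in wild-type cells. Knockout replicate 2 and wild-type replicate 1 were low, and the other libraries were high in both strains. The log2 fold change of -0.05 ± 0.39 (SE) had a 95% interval from -1.07 to 0.97, which holds changes of either sign. Without wild-type replicate 2 the value was 0.40, and without wild-type replicate 1 it was -0.50. ILV3, the dehydratase of the next step, read 259, 176 and 216 FPKM in knockout cells and 193 and 292 in wild-type cells, and the same libraries were lowest.

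The aminotransferase pair of this pathway had values of opposite sign. BAT1, the mitochondrial enzyme that serves synthesis, read 658, 647 and 588 FPKM in SUL1 knockout cells and 751 and 812 in wild-type cells, a log2 fold change of -0.31 ± 0.09 (SE; adjusted p = 0.189, limma). BAT2, the cytosolic enzyme tied mainly to breakdown and not among the 35 genes, read 381, 290 and 446 FPKM in knockout cells and 217 and 226 in wild-type cells. Its log2 fold change was 0.73 ± 0.17 and was not called (SE; adjusted p = 0.169, limma). The ratio of BAT1 to BAT2 in a library, which no scaling of the library can alter, was 1.73, 2.23 and 1.32 in knockout cells and 3.46 and 3.60 in wild-type cells. The ratios did not overlap, and knockout replicate 2 lay nearest to the wild type. Of the other pairs read in this way, the ratios of LYS20 to LYS21, LEU4 to LEU9 and ILV6 to ILV2 overlapped, and that of TRP2 to TRP3 did not. BAT1 and BAT2 were not among the pairs planned beforehand, and no share over all genes was computed for such ratios. The coding sequences are 72.5% identical and share no 50-base window.

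The genes of tryptophan and the shikimate pathway did not overlap between the strains in any of 5 cases, against 28.0% of all genes. With the length trend removed 3 of the 5 did not, a setting for which the share of all genes is not given here. Their median log2 fold change was -0.35. ARO1, a multifunctional protein of the shikimate steps, read 24.6, 25.3 and 21.4 FPKM in SUL1 knockout cells and 32.4 and 32.8 in wild-type cells. Its log2 fold change was -0.44 ± 0.11 (SE; adjusted p = 0.169, limma). ARO1 is the longest gene of the set, at 4767 bp, and the value was -0.13 with the length trend removed. TRP5, the tryptophan synthase, read 121, 98.8 and 113 FPKM in knockout cells and 131 and 156 in wild-type cells, with a log2 fold change of -0.36 ± 0.12 (SE; adjusted p = 0.214, limma). TRP2 and TRP3 form anthranilate synthase. TRP2 read 118, 108 and 105 FPKM in knockout cells and 136 and 146 in wild-type cells, a log2 fold change of -0.35 ± 0.09. TRP3, whose protein also makes indole-glycerol phosphate, read 88.4, 72.8 and 77.5 FPKM in knockout cells and 89.6 and 97.5 in wild-type cells, with -0.23 ± 0.11, the smallest value of the pathway. TRP4, the anthranilate phosphoribosyltransferase, had 59.6 ± 3.05 FPKM in knockout cells (SD, n = 3) and 71.4 ± 0.460 in wild-type cells (SD, n = 2).

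The branch from aspartate to homoserine, which feeds threonine, isoleucine and methionine, had the smallest pathway median, -0.20. HOM3, the aspartate kinase that opens it, read 121, 78.9 and 102 FPKM in SUL1 knockout cells and 104 and 144 in wild-type cells, with overlap and a log2 fold change of -0.30 ± 0.21. HOM2, the semialdehyde dehydrogenase, read 604, 519 and 572 FPKM in knockout cells and 617 and 675 in wild-type cells, without overlap, at -0.20 ± 0.10. HOM6, the homoserine dehydrogenase, read 311, 293 and 325 FPKM in knockout cells and 313 and 316 in wild-type cells. Its log2 fold change of -0.02 ± 0.09 (SE) had a 95% interval from -0.22 to 0.18, and its sign turned when libraries were set to an equal median or the length trend was removed. No gene of this branch had an unadjusted p under 0.05 (limma).

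Libraries within a strain also stood apart, and the same libraries were low for many of these genes. Wild-type replicate 1 lay below replicate 2 for 33 of the 35 genes, against 49.2% of all genes tested. In the knockout, 21 were lowest in replicate 2, against 31.6% of all genes, and 7 were highest there. All 21 were also lower in wild-type replicate 1, or 60.0% of the 35, against 20.2% of all genes. Because 33 of the 35 were lower there, this joint count adds little to the separate counts. The level in knockout replicate 2 over the mean of the other knockout libraries was 0.558 for ILV5, 0.670 for LYS1 and 0.706 for HOM3, but 1.24 for LYS4 and 1.28 for ARG8. The level in wild-type replicate 1 over that in replicate 2 was 0.533 for ILV5, 0.659 for ILV3 and 0.706 for ILV2. The labels name no batch, and what sets these libraries apart was not tested.

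**Figure D4:**
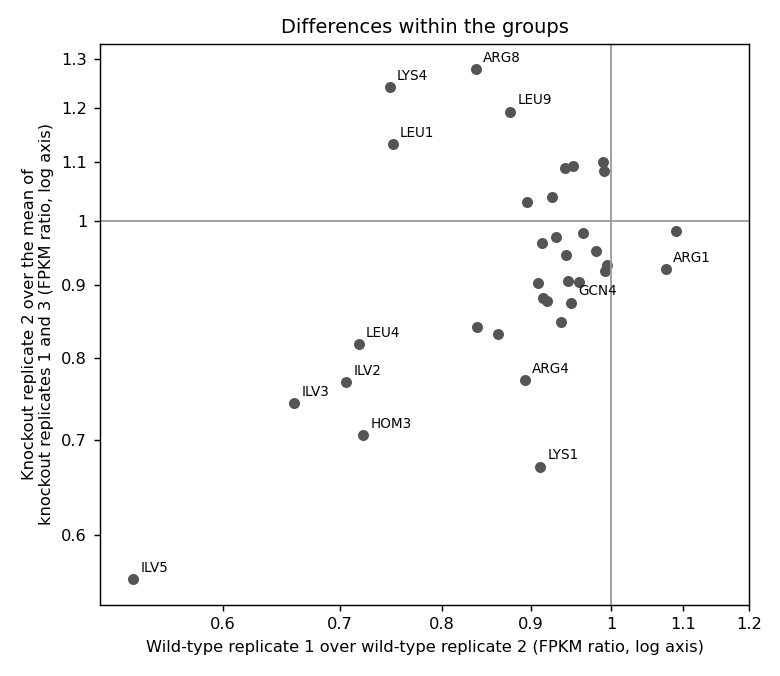
Levels within the strains for the 35 genes, with knockout replicate 2 over the mean of knockout replicates 1 and 3 on the vertical axis and wild-type replicate 1 over replicate 2 on the horizontal axis (FPKM ratios, log axes). ILV5 is lowest on both axes, at 0.558 and 0.533, and 33 genes lie left of 1.

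Genes with and without the Gcn4 motif were compared by their medians only, and the difference was not tested. The 21 genes with TGACTC within 250 bases had a median log2 fold change of -0.26, and the 14 without it had -0.30. Within 500 bases the order was the other way, at -0.30 for the 26 genes with it and -0.27 for the 9 without. Among those with the motif, values ran from -0.72 for LYS2 to -0.03 for LYS12.

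Genes around Gcn4 were also read in the same fit, from lists of general knowledge. Of 15 regulators that act upstream of Gcn4, 0 were called, and 4 were lower and 0 higher at an unadjusted p under 0.05 (limma), against 11.6% of all genes lower and 6.92% higher. With the length trend removed 1 was lower, against 4.83% of all genes. The median log2 fold change was -0.18. GCN1, which helps Gcn2 to sense uncharged transfer RNA, had 17.9 ± 3.52 FPKM in SUL1 knockout cells (SD, n = 3) and 27.1 ± 3.65 in wild-type cells (SD, n = 2), with a log2 fold change of -0.58 that was -0.18 with the length trend removed. GCD11, the gamma subunit of eIF2, had 170 ± 4.81 FPKM in knockout cells and 213 ± 9.96 in wild-type cells. Of 11 genes of Gcn4 turnover and coactivation, 0 were called and 0 had an unadjusted p under 0.05 (limma). Their median was -0.05 and was positive with libraries set to an equal median, at 0.01, and with the length trend removed, at 0.04. SPT7, of the SAGA coactivator, had 13.8 ± 0.75 FPKM in knockout cells and 17.0 ± 2.08 in wild-type cells, and SSN3 and MBF1 had log2 fold changes of -0.19 and 0.19. PCL5, the cyclin that marks Gcn4 for degradation, had 590 ± 66.9 FPKM in knockout cells and 564 ± 42.8 in wild-type cells. Of 12 activators and repressors linked to these pathways, not all of them specific to 1 pathway, 0 were called. Of these, 2, BAS1 at -0.37 and LYS14 at -0.29, were lower at an unadjusted p under 0.05 (limma), against 11.6% of all genes. With the length trend removed 0 were. CBF1, at -0.40, had the largest difference of this list, but its groups overlapped.

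Of 33 other amino acid biosynthesis enzymes, 0 were called, and 13 were lower and 1 was higher at an unadjusted p under 0.05 (limma), against 11.6% of all genes lower and 6.92% higher. Of the 33, 27 were below 0, against 62.6% of all genes, and the median was -0.15. The 1 gene higher at an unadjusted p under 0.05 was BAT2. The asparagine synthetase genes ASN1 and ASN2, named after their values were seen, did not overlap between the strains. ASN1 read 404, 386 and 357 FPKM in knockout cells and 532 and 578 in wild-type cells, with a log2 fold change of -0.54 ± 0.09 (SE; adjusted p = 0.0877, limma). ASN2 read 372, 381 and 370 FPKM in knockout cells and 470.1 and 491 in wild-type cells, with -0.36 ± 0.08. Of 12 other Gcn4 targets, 0 were called and 1, the carrier gene ODC2, was lower at an unadjusted p under 0.05 (limma), against 11.6% of all genes. AGP1, an amino acid permease, had 35.1 ± 11.9 FPKM in knockout cells and 54.8 ± 15.5 in wild-type cells, and the vitamin B6 gene SNZ1 read 42.9, 11.0 and 43.7 in knockout cells and 19.3 and 20.8 in wild-type cells.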

How the data were processed

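The authors deposited FPKM per gene for each library, per the file headers, in a table for each strain and with no common scale between libraries. The submitters' processing notes name HISAT2 2.1.0, Bowtie2, RSEM 1.3.1, DESeq2 1.4.5 and build R64 without their roles, and the strand setting is not given in the sources used here. Groups came from the genotype labels. Titles call the libraries biological replicates, and p-values measure the spread between these samples.

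Values were tested as log2(FPKM + 1) with limma 3.58.1 in R 4.3.3 (trended, robust prior variance, genotype only) over the 5712 genes whose mean reached 1 FPKM, and adjusted by the Benjamini-Hochberg method over all of them with a threshold of 0.05. Folds on this scale understate changes of low genes. The design had been written for FPKM. All 35 genes passed the filter. Standard errors and 95% intervals are from this fit. In 5 simulations modelled on this comparison over 5712 genes, 44.4% of genes changed 1.5-fold and 76.0% of those changed 2-fold were recovered, with 32 false calls in all. The simulations drew independent noise, with spreads shuffled among genes, and left out shifts that genes of a library share. They also planted larger changes, up to 8-fold, so these shares need not hold for the measured data.

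Depth was estimated from steps between low FPKM, with coding length less an offset of 136 to 146 bases. Between 87.0% and 91.0% of values came within 0.15 of a whole fragment. The estimates entered no test, and counting errors cover counting only. Of 5886 gene IDs, 5883 matched R64, which gave positions, coding lengths (without untranslated regions) and upstream sequence.

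Alternatives covered pseudocount, filter, library scale, coding length, prior variance, replicate number and leaving out libraries. Genes and lists were chosen with earlier results of these data known. Full values are given for GCN4 and, in each pathway, for the genes with the 2 largest and the smallest differences and for isozyme or subunit pairs; in other lists the 2 largest differences are named, except for 1 gene that is not reported here. PCL5, ASN1, ASN2, LYS14, ODC2, SSN3 and genes given beyond this rule were named after their values were seen. Python 3.11.15, pandas 2.3.3, Biopython 1.88 and matplotlib 3.10.9 were used.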

Additional observations from a re-analysis of the deposited data

How the results depend on the processing

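No alternative that left out no library called any of the 35 genes (limma). Between 9 and 24 had an unadjusted p under 0.05 (limma), but the share of all genes that were lower also moved. It was 4.83% with the length trend removed and 11.6% in the fit without alternatives. That share is not given here for the count of 24. With the replicate number as a block (replicate block) 9 genes were lower at an unadjusted p under 0.05, against 20 without it and 2.64% of all genes. Only knockout replicate 3 has that number, so the block takes it out of the strain difference. GCN4 was at -0.33 both with the block and without that library. Replicate 1 of the strains deviated oppositely across genes (r = -0.37), as did replicate 2 (r = -0.43). The deviations of the 2 wild-type libraries mirror each other, so these values are not separate results. Whether the numbers pair the samples was not tested. Leaving out single libraries gave 0 to 8 genes called lower, 4 to 19 lower at an unadjusted p under 0.05, and a median from -0.37 to -0.23; the highest count came without knockout replicate 2, the lowest of 4 without wild-type replicate 2, where 2.45% of all genes were lower. With either wild-type library left out, the lone one is assumed to vary like the knockout libraries, which alone give the spread. The count of 19 came without knockout replicate 1, where 354 of 5712 genes were lower at an unadjusted p under 0.05 (limma). The 8 genes called without knockout replicate 2 stood against 10.5% of all genes. At an unadjusted p under 0.05 (limma) 18 were lower there, against 1370 of 5712 genes. Without knockout replicate 2, equal FPKM sums gave 15 called, against 19.5% of all genes, and removal of the length trend gave 13 at an unadjusted p under 0.05 and a median of -0.14. The median was -0.38 with equal FPKM sums, where that of all genes was -0.16, and -0.20 with the length trend removed.

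With all libraries 0 genes of the other lists, of 15, 11, 12, 33 and 12 genes, were called. Without knockout replicate 2, 15 were called lower and 4 higher, against 10.5% and 5.22% of all genes. Once the length trend was also removed, 2 were lower, against 1.63% of all genes, and 3 higher. With equal FPKM sums instead, 26 were lower, against 19.5% of all genes, and 3 higher. The shares of all genes called higher under the last 2 settings are not given here.

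Signs turned for few genes. With an equal median log2 ratio HOM6 was at 0.040, ILV5 at 0.013 and LYS12 at 0.031. With the length trend removed they were at 0.017, 0.0089 and 0.015. Leaving out single libraries gave from -0.058 to 0.016 for HOM6, -0.50 to 0.40 for ILV5, -0.45 to 0.15 for ILV3 and -0.097 to 0.034 for LYS12. Without knockout replicate 2 and with the length trend removed, HIS7 was at 0.012, HOM6 at 0.065, ILV2 at 0.011, ILV3 at 0.14, ILV5 at 0.30 and LYS12 at 0.041, and with equal FPKM sums ILV5 was at 0.16. The median of Gcn4 turnover genes was 0.013, 0.041 and 0.0015 with an equal median, the length trend removed and the block, from -0.086 to 0.015 with single libraries left out, and 0.082 without knockout replicate 2 and the length trend, where that of other Gcn4 targets was 0.040. The cause of these moves was not tested.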
